A study of Mus musculus with 4 samples.

Results

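The genes described here are 10 genes of the endoplasmic reticulum: the chaperones Hspa5, Hsp90b1, Calr and Canx, the disulphide oxidoreductases Pdia3, Pdia4 and P4hb, and the stress response genes Xbp1, Atf6 and Ern1. They were taken by symbol, and all 10 were found among the 22481 symbols of the deposited tables. RNA was recovered from mouse brown adipose tissue with an antibody against FAM172A (IP) or with control immunoglobulin (IgG) and sequenced, to look for transcripts bound by FAM172A. There were 4 libraries, an IP and an IgG library in each of 2 pairs, and all of them are labelled WT. The pair called first here belongs, by elimination only, to the libraries titled WT-cold-BAT, which carry a cold protocol label. The WT4 pair (titled BAT-WT4) carries no protocol label. Strain, age and sex are not given in the sources used here, nor whether the pairs came from separate animals. The spread between pairs may therefore be technical. The pairs also differ in depth and, by elimination, in protocol label. Technical spread, depth and the cold protocol cannot be told apart in the spread between pairs. Input RNA was not analysed here, so an IgG level is no measure of the level in the tissue.

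Proteins that are secreted or inserted into membranes fold in the endoplasmic reticulum, where Hsp70-type and Hsp90-type chaperones hold unfolded chains, lectin chaperones hold sugar-tagged ones and oxidoreductases form their disulphide bonds. When unfolded chains accumulate, the sensors encoded by Ern1 (IRE1) and Atf6 leave Hspa5 and switch on the unfolded protein response, in which Ern1 splices Xbp1 mRNA and the resulting factor, with the cleaved form of ATF6, induces chaperone genes. In brown fat this machinery handles secreted and membrane proteins and works beside the lipid synthesis enzymes of the same membrane.

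The chaperones that stay in the lumen are known to end in a retrieval tail that brings them back from the Golgi, and Canx, a membrane protein, is known to lack it. The coding ends are shown because they are the feature that divides these mRNAs by the fate of their product. Each line gives the last 24 coding bases before the stop codon, 5′ to 3′, from the GENCODE vM21 transcript, with the last 12 in capitals.
Hspa5: gatacatcagaaAAAGATGAGTTG
Hsp90b1: gaatctacagagAAGGATGAATTG
Calr: cctggccaagccAAGGATGAGCTG
P4hb: cagaaagctgtgAAGGATGAACTG
Pdia4: aggagcaggaccAAGGAAGAGCTT
Pdia3: aagaagaaggcaCAAGAGGACCTC
Canx: agaaacagaaagCCACGAAGAGAG

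A stretch of Xbp1 is shown because it links a pair of the stress genes: the protein made from Ern1 is known to cut it out of Xbp1 mRNA. The 26 excised bases are in capitals between flanks of 20 bases. They were found as the stretch between 2 matches of CNGCAGC, the sequence around each cut, that lie 26 bases apart.
Xbp1: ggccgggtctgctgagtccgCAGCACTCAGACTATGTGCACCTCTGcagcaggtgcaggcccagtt
All 3 annotated coding transcripts of Xbp1 hold this stretch within the coding sequence. The deposited values are 1 number per gene, so spliced and unspliced Xbp1 mRNA were not separated in them.

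The promoters were searched for the endoplasmic reticulum stress element, CCAAT and then CCACG with 9 bases between them, because ATF6 is known to bind there and so reach the chaperone genes. RefSeq promoters (GRCm38.p6, 250 bases before to 50 after each gene start) were available for 9 of the 10 genes, all but Atf6. On either strand, the element matched in 4 of these 9, and the 4 were the chaperones. Of all 32851 promoters of the same length, 0.119% held a match. The element was chosen for its known link to chaperone genes, so these shares describe the promoters and are no test. In each line the fixed letters are in capitals and the sequence is written in the direction of the element.
Hspa5: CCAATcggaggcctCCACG
Hsp90b1: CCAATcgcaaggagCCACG
Hsp90b1: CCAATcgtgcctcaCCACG
Calr: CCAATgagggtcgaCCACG
Canx: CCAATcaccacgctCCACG
The Hspa5 match lies at chr2:34772025-34772043, those of Hsp90b1 at chr10:86705638-86705656 and chr10:86705533-86705551, that of Calr at chr8:84847075-84847093 and that of Canx at chr11:50325800-50325818. The Calr match and the second Hsp90b1 match are on the strand opposite to the gene. A second form of the element, ATTGG and then CCACG with 1 base between them, stands in 0.0365% of all promoters on either strand, and the element TGACGTGG in 0.676%. Neither had a match in these 9 windows. The matches printed above do not overlap each other.

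Depth differed between libraries. The IP libraries held 6633653 (first pair) and 1631881 (WT4 pair) fragments, and the IgG libraries 5587298 and 360369. Levels are given as scaled CPM, the authors' scaled count over the mean total of its pair, times 1000000. A single fragment was worth 0.152 and 0.674 scaled CPM in the IP libraries and 0.178 and 2.50 in the IgG libraries. The pairs were normalized separately by the authors, so a level set across pairs is only approximate. Within each pair IP was set over IgG as a log2 ratio, with 1 scaled CPM added to both. Over 16217 tested genes this ratio had a median of -0.03 in the first pair and of 1.17 in the WT4 pair. Among the 1906 genes of at least 100 scaled CPM, the range in which 5 of the 10 genes lie, the medians were -0.05 and 0.46. Fam172a, whose protein was targeted, had 141 and 99 IP fragments and 135 and 24 IgG fragments, which is no check of how well the antibody worked.

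The markers of brown adipocytes, all 10 detected in every library, summed to 14402 and 9382 scaled CPM in IP and 13430 and 4354 in IgG. The 8 endothelial markers summed to 939 and 2851 in IP and 2193 and 1977 in IgG, the 8 fibroblast markers to 388 and 286 in IP and 353 and 227 in IgG, and the 8 skeletal muscle markers to 5677 and 1564 in IP and 3639 and 1620 in IgG. Smooth muscle and pericyte markers summed to 579 and 757 in IP and 889 and 570 in IgG, macrophage markers to 74.7 and 69.5 in IP and 49.7 and 102 in IgG, and Schwann cell and neuron markers to 37.1 and 63.7 in IP and 37.2 and 99.97 in IgG. The part of any cell type in the values below was not tested. These sums are of recovered RNA from bulk tissue, so recovery, cell number and RNA per cell cannot be told apart in them.

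The first question was how far these mRNAs were recovered by the FAM172A antibody beyond IgG. In the first pair 0 of the 10 genes stood 2-fold or more above IgG in the IP library and 0 stood 2-fold or more below it, where 13.3% and 26.9% of all tested genes did. In the WT4 pair Hspa5, Hsp90b1, Pdia3, P4hb and Ern1 stood that far above IgG, against 51.6% of all tested genes, and Xbp1 below it, against 19.3%. On FPKM 1 gene was above and 1 below in the first pair, where 12.9% and 22.9% of all tested genes were, and 5 above and 1 below in the WT4 pair, where 46.4% and 19.6% were. Among genes of at least 100 scaled CPM the shares above and below were 2.73% and 8.08% in the first pair, whereas the WT4 pair had 30.0% and 5.51%. The median log2 ratio of the 10 genes was -0.16 in the first and 0.97 in the WT4 pair, below the all-gene medians of -0.03 and 1.17. The 1906 abundant genes had a lower WT4 median than the 10 genes, at 0.46. On FPKM the order turned round, with 0.21 and 0.96 for the 10 genes against -0.011 and 0.83 for all genes. Set to their bound against a floor of 3 fragments, Pdia3 and P4hb, the genes at 0 in WT4 IgG, stayed above the WT4 count median of 0.97. That median could therefore not move, and its being unchanged is no check. None of the 10 passed the 2-fold line the same way in both pairs, where 7.19% of all genes were higher and 5.25% lower, or 0.577% and 0.63% of genes of at least 100 scaled CPM.

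**Figure D1:**
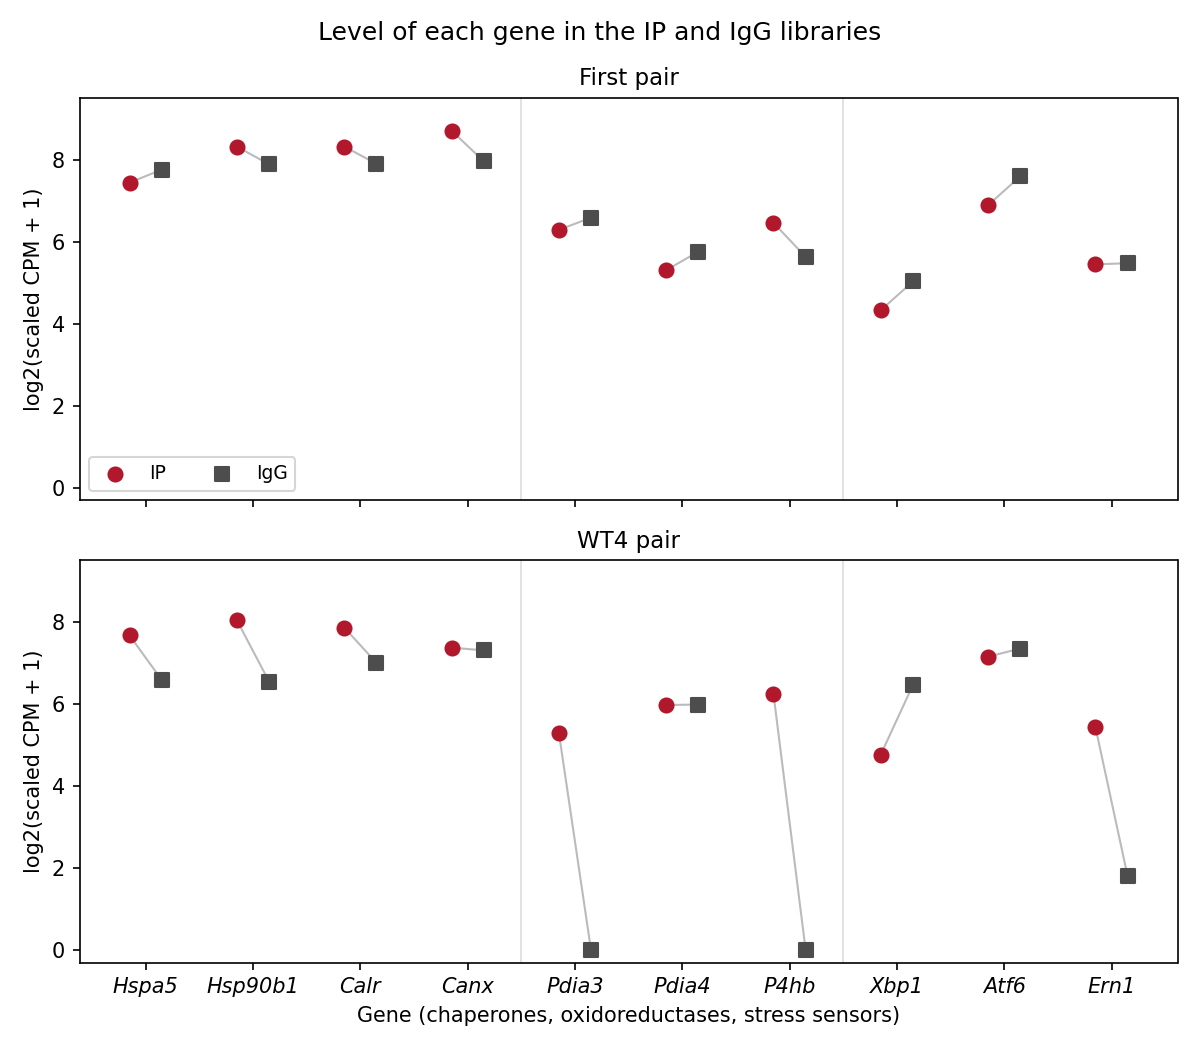
Level of each gene as log2(scaled CPM + 1) in the first pair (top) and the WT4 pair (bottom), with 1 IP library (red circles) and 1 IgG library (grey squares) per pair and a line joining them. Pdia3 and P4hb are at 0 in the WT4 IgG library, and Canx has the highest level in the first pair's IP library (416 scaled CPM).

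The quasi-likelihood test of edgeR over the 4 libraries, with the pair as a block, called 0 of the 10 genes (Benjamini-Hochberg adjusted p = 1.0 for each over all genes), and none had an unadjusted p under 0.05. Over all genes it called 1 higher (0.00617%) and 0 lower (0.0%). That gene was mt-Atp6, a mitochondrial subunit of ATP synthase, with 66933 and 611 IP fragments and 2381 and 1 IgG fragments (log2 fold change 5.39, adjusted p = 6.18e-10). DESeq2 called 3 higher, mt-Atp6 and the predicted genes Gm20425 and Gm20716, and 0 lower. Gm20425 had 136 and 0 IP fragments and Gm20716 had 396 and 132. Neither had an IgG fragment, so both entered the tested genes through IP alone, Gm20425 through a single library. At an unadjusted p under 0.05 edgeR placed 139 genes higher (0.857%) and 96 lower (0.592%). The smallest unadjusted p among the 10 was 0.0673, for P4hb. The spread that edgeR estimated between libraries was wide, a biological coefficient of variation of 1.21 as the common value over all tested genes. It is not the spread of each of the 10, whose standard errors ran from 0.61 (Canx) to 2.18 (Ern1). A p that misses the threshold does not show that the groups were alike. With 2 libraries a group, the smallest two-sided p of an exact permutation test that ignores the pairs is 0.333. Swaps within pairs allow fewer arrangements, so their smallest p is larger. In scaled CPM both IP libraries lay above both IgG libraries for 2 genes, Hsp90b1 and P4hb, as for 14.5% of all tested genes and 9.65% of those of at least 100 scaled CPM. Both lay below for 2, Xbp1 and Atf6, as for 5.8% and 4.56%. The other 6 genes overlapped between the groups.

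Levels between genes were compared in FPKM, which is per length. The pairs are again on scales of their own. Calr had the highest FPKM in the IP libraries (218 and 140), with Canx next (215 and 76.9), then Hsp90b1 (88.5 and 55.2), Hspa5 (53.1 and 51.1) and P4hb (37.6 and 21.6). Pdia3 (31.5 and 7.42), Atf6 (13.2 and 13.4), Ern1 (15.4 and 10.99), Pdia4 (11.98 and 13.5) and Xbp1 (13.6 and 10.9) followed. Between neighbours in this order, which is by the mean of the IP libraries, the ranges over the IP libraries overlapped, apart from Hsp90b1 over Hspa5 and Hspa5 over P4hb, whose ranges were separate. In the first IgG library the order was Calr (168), Canx (156), Hspa5 (138), Hsp90b1 (63.7), Pdia3 (34.6), Atf6 (22.9), P4hb (20.1), Pdia4 (16.5), Xbp1 (13.2) and Ern1 (6.85). The WT4 IgG library had another order, with Canx (128) and then Xbp1 (64.0), Hspa5 (40.3), Calr (39.97), Atf6 (21.0), Hsp90b1 (17.8), Pdia4 (13.9) and Ern1 (0.398), and P4hb and Pdia3 listed at 0. The chaperones were thus the most abundant of these mRNAs in all libraries but WT4 IgG, where Xbp1 stood second.

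Among the chaperones, Hspa5 encodes BiP, the Hsp70 of the endoplasmic reticulum (ENSMUSG00000026864, chr2:34771970-34777547, plus strand). It had 1138 and 301 IP fragments and 1208 and 38 IgG fragments, or 172 and 203 scaled CPM in IP and 215 and 94.97 in IgG. IP lay below IgG in the first pair and above it in the WT4 pair, and the groups overlapped. The log2 ratios were -0.32 and 1.09, and their mean was 0.38 ± 0.99 (SD, n = 2 pairs). Its FPKM were 53.1 in IP and 138 in IgG in the first pair, 0.384-fold, where the counts gave 0.802-fold. In the WT4 pair they were 51.1 and 40.3, 1.27-fold, where the counts gave 2.14-fold. By FPKM Hspa5 was thus over 2-fold lower in the first pair and under 2-fold higher in the WT4 pair.

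Hsp90b1 (ENSMUSG00000020048, chr10:86690209-86705509, minus strand) encodes GRP94, the Hsp90 of the endoplasmic reticulum, a chaperone of secreted and cell surface proteins. It had 2093 and 389 IP fragments against 1321 and 37 IgG fragments, or 317 and 262 scaled CPM in IP and 235 and 92.5 in IgG. Both IP libraries were higher than both IgG libraries. The log2 ratios were 0.43 and 1.49 (mean 0.96 ± 0.75, SD, n = 2 pairs), close to those in FPKM, 0.47 and 1.58. Across both pairs its log2 fold change was 0.95 with a standard error of 0.63 (edgeR quasi-likelihood, adjusted p = 1.0, unadjusted p = 0.132). Of the genes of at least 100 scaled CPM, in the first pair 82.8% had a lower log2 ratio than Hsp90b1, and in the WT4 pair 81.6%. Among all tested genes the shares were 77.0% and 53.2%.

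The lectin chaperones Calr and Canx hold the same sugar-tagged clients, Calr in the lumen and Canx in the membrane. Calr (ENSMUSG00000003814, chr8:84841850-84846934, minus strand) had 2098 and 344 IP fragments and 1333 and 51 IgG fragments, or 318 and 232 scaled CPM in IP and 237 and 127 in IgG. It was higher in IP within each pair, though its WT4 IP level lay just under its first IgG level. Its log2 ratios were 0.42 and 0.86 (mean 0.64 ± 0.31, SD, n = 2 pairs), and in FPKM 0.37 and 1.78, so that in the WT4 pair FPKM put it past the 2-fold line. Canx (ENSMUSG00000020368, chr11:50293961-50325673, minus strand) had 2746 and 245 IP fragments and 1391 and 63 IgG fragments, or 416 and 165 scaled CPM in IP and 248 and 157 in IgG. In the first pair IP was higher, and in the WT4 pair IP and IgG were about level, with log2 ratios of 0.75 and 0.07 (mean 0.41 ± 0.48, SD, n = 2 pairs). In the first pair 93.8% of the genes of at least 100 scaled CPM had a lower ratio, and in the WT4 pair 33.3%. In FPKM its ratio turned negative in the WT4 pair (-0.73, from 76.9 in IP and 128 in IgG). The 4 chaperones summed to 1224 and 862 scaled CPM in IP and 935 and 472 in IgG, and their median log2 ratios were 0.42 and 0.97.

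**Figure D2:**
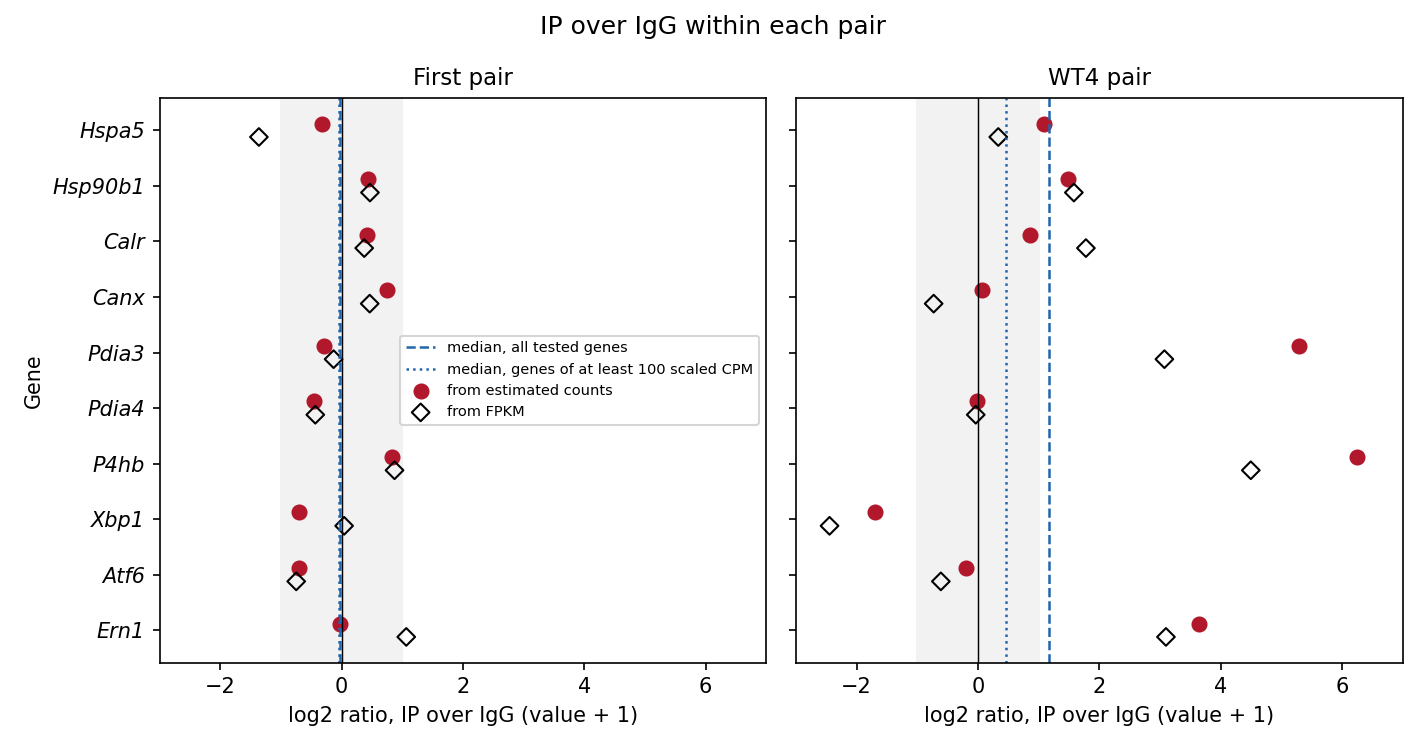
Log2 ratio of IP over IgG for each gene in the first pair (left) and the WT4 pair (right), from estimated counts (filled circles, scaled CPM + 1) and from FPKM (open diamonds, FPKM + 1), with medians of all tested genes (dashed) and of genes of at least 100 scaled CPM (dotted) on the count scale. The shaded band is under 2-fold. All 10 genes lie within it by counts in the first pair, and 6 lie outside it in the WT4 pair.

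Of the oxidoreductases, P4hb and Pdia3 had no fragment in the WT4 IgG library, and Pdia4 had 25. P4hb encodes protein disulphide isomerase, which is also a subunit of collagen prolyl 4-hydroxylase and of the lipoprotein assembly factor made from Mttp (ENSMUSG00000025130, chr11:120560298-120573253, minus strand). It had 574 and 111 IP fragments and 272 and 0 IgG fragments, or 87.0 and 74.8 scaled CPM in IP and 48.4 and 0 in IgG. IP was higher than IgG in both pairs, 1.80-fold in the first pair with a 95% counting interval of 1.55 to 2.08. Against a floor of 3 fragments for WT4 IgG, P4hb was at least 9.97-fold higher in WT4 IP, and the exact 95% counting interval of that ratio starts at 7.98. The fragments carry no molecular identifiers and are not independent molecules, so these intervals and floors hold counting error alone. Across both pairs the log2 fold change was 2.88 with a standard error of 1.57 (edgeR quasi-likelihood, adjusted p = 1.0).

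Pdia3 encodes ERp57, which works on the clients of Calr and Canx (ENSMUSG00000027248, chr2:121413775-121438687, plus strand). Its 509 and 57 IP fragments stood against 533 and 0 IgG fragments, or 77.1 and 38.4 scaled CPM in IP and 94.9 and 0 in IgG. The first pair had less of it in IP (log2 ratio -0.30). In the WT4 pair it was, against the floor, at least 5.12-fold higher, and the counting interval starts at 4.03. The tables give Pdia3 a locus shared with Catsper2, so its count is uncertain. Pdia4, or ERp72, a further isomerase of the lumen (ENSMUSG00000025823, chr6:47796141-47813430, minus strand), had 254 and 92 IP fragments and 298 and 25 IgG fragments, or 38.5 and 62.0 scaled CPM in IP and 53.1 and 62.5 in IgG. It was lower in IP than in IgG of the first pair and level between the WT4 libraries (log2 ratios -0.45 and -0.01, mean -0.23 ± 0.31, SD, n = 2 pairs), and its FPKM ratios were much the same (-0.43 and -0.04). The difference between Pdia4 and the other oxidoreductases in the WT4 pair rests on 25 fragments against 0.

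Genes listed at 0 were common in the WT4 IgG library. Of genes whose other 3 libraries averaged 30 to 100 scaled CPM, the range of P4hb (70.1), Pdia3 (70.1), Pdia4 (51.2) and Ern1 (42.9), 24.2% were listed at 0 in it. For libraries binned by the same rule the share was 7.93% in the first IP library, 0.358% in the WT4 IP library and 3.98% in the first IgG library. At the level of the first IgG library, P4hb would have had 19.4 fragments in a library of the WT4 IgG size, Pdia3 38.0 and Ern1 17.4. The WT4 values of these 3 genes rest on that library, and its part in them was not tested.

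**Figure D3:**
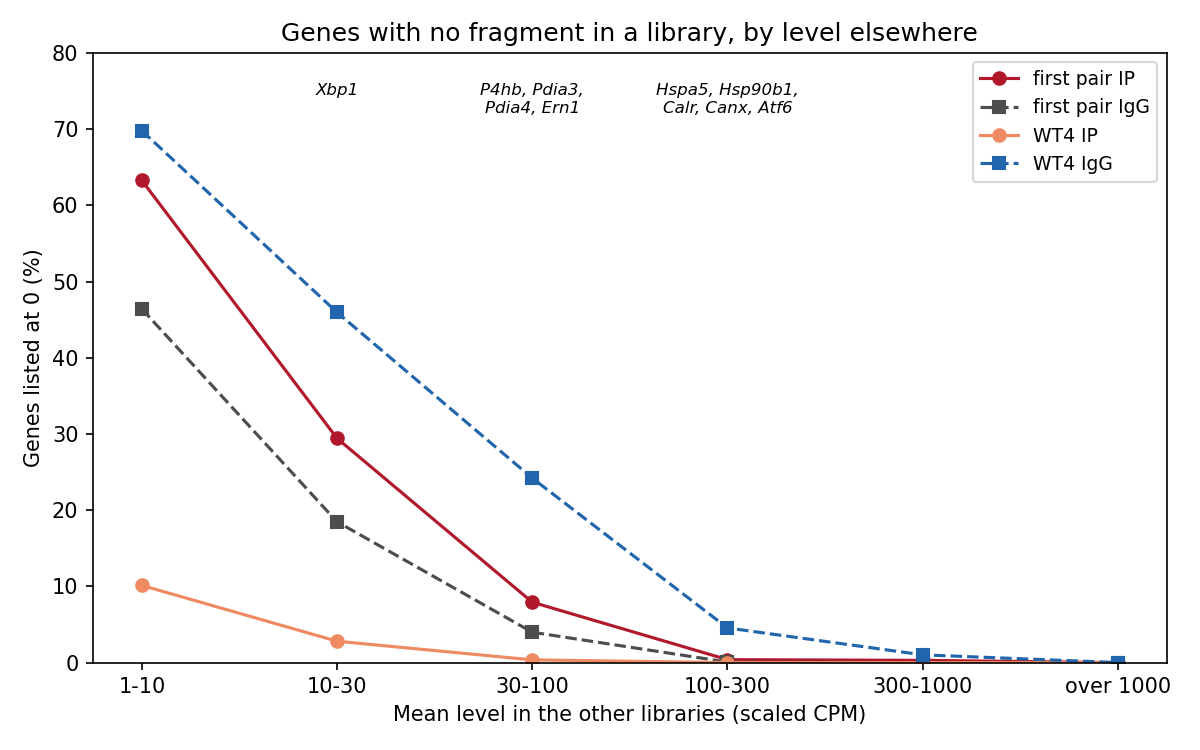
Share of genes listed at 0 in each library (y axis, %) by their mean scaled CPM in the other 3 libraries (x axis), with the genes described here named above the bin they fall in for the WT4 IgG library. In the bin of 30 to 100 scaled CPM 24.2% of genes are at 0 in WT4 IgG, against 7.93% in the first IP library.

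Of the stress response genes, Atf6 encodes the membrane-bound factor that is cleaved in the Golgi under stress (ENSMUSG00000026663, chr1:170704674-170867771, minus strand). It had 775 and 210 IP fragments and 1078 and 65 IgG fragments, or 117 and 141 scaled CPM in IP and 192 and 162 in IgG. Both IP libraries were lower than both IgG libraries. The log2 ratios were -0.70 and -0.20 (mean -0.45 ± 0.36, SD, n = 2 pairs), and FPKM gave -0.75 and -0.61. With edgeR TMM factors within each pair in place of the authors' scaling they were -0.59 and 0.077, so the WT4 sign turned. It did not pass the test (edgeR quasi-likelihood, log2 fold change -0.46, standard error 0.69, adjusted p = 1.0).

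Xbp1, the factor whose mRNA is spliced by the protein of Ern1 (ENSMUSG00000020484, chr11:5520659-5525893, plus strand), had 126 and 39 IP fragments and 178 and 35 IgG fragments. In scaled CPM these were 19.1 and 26.3 in IP and 31.6 and 87.5 in IgG. It was lower in IP in both pairs, with log2 ratios of -0.70 and -1.70 (mean -1.20 ± 0.71, SD, n = 2 pairs), and it was the gene of the 10 with the lowest mean ratio. In the WT4 pair 12.5% of all tested genes had a lower ratio. Of genes of at least 100 scaled CPM, 1.52% did, but Xbp1, with a mean of 41.1, is not in that range. Ratios past 2-fold lower are rarer there, at 5.51% against 19.3% of all tested genes. FPKM gave -2.45 there but 0.042 in the first pair, where IP was thus level with IgG. The tables list Xbp1 at a merged locus that 12 genes share, and its count is uncertain.

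Ern1 encodes IRE1 alpha, the kinase and nuclease sensor (ENSMUSG00000020715, chr11:106394650-106487852, minus strand). It had 281 and 63 IP fragments and 244 and 1 IgG fragments, or 42.6 and 42.5 scaled CPM in IP and 43.4 and 2.50 in IgG. The IP libraries were alike, and IP was level with IgG in the first pair and above it in the WT4 pair. The WT4 fold was 17.0 with a 95% counting interval from 2.94 to 681, set by a single IgG fragment. The log2 ratios were -0.03 and 3.64 (mean 1.80 ± 2.59, SD, n = 2 pairs). In FPKM Ern1 was over 2-fold higher in IP in both pairs (15.4 against 6.85, then 10.99 against 0.398). The 3 stress response genes summed to 179 and 210 scaled CPM in IP and 267 and 252 in IgG, of which Atf6 made up 117 and 141 in IP and 192 and 162 in IgG.

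The rest of the folding machinery was taken as 7 lists, and 0 of their genes were called (edgeR quasi-likelihood over all genes). Of all tested genes, 13.3% were 2-fold or more higher in IP and 26.9% lower in the first pair, and for the WT4 pair the shares were 51.6% and 19.3%. In both pairs 7.19% were higher and 5.25% lower. Many list genes had no fragment in WT4 IgG, so each WT4 median is also given with the genes at 0 set to their bound. The all-gene WT4 median of 1.17 was not taken at the bound, so it can be set only against the list medians without it.

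Of 17 tested partners of the Hsp70 and Hsp90 chaperones, 7 (41.2%) were higher past 2-fold and 0 lower in the first pair, against 9 (52.9%) and 2 (11.8%) in the WT4 pair. The list's medians were 0.15 and 2.03, the second being 0.61 at the bound. Sil1, Sdf2, Sdf2l1, Creld2 and Ppib were higher in both pairs, all 5 with no fragment in WT4 IgG, and at the bound 1 of them, Ppib, was still past 2-fold in both. Sdf2 and Sdf2l1 had no IgG fragment in either pair, so they entered the tested genes through IP alone. Sil1 and Creld2 also needed their IP level to reach the mean of 1 scaled CPM at which genes were tested. Ppib, the prolyl isomerase cyclophilin B, had 301 and 61 IP fragments and 89 and 0 IgG fragments, with a bound of 5.48-fold in the WT4 pair, and it shares a listed locus. Sil1, the nucleotide exchange factor of BiP, had 131 and 18 IP fragments and 8 and 0 IgG fragments, with a bound of 1.62-fold in the WT4 pair. Creld2, an isomerase-like protein of the lumen, had 136 and 9 IP fragments and 21 and 0 IgG fragments, and its WT4 fold against the floor was 0.809, which bounds no increase. Sdf2l1, a BiP cofactor, had 32 and 10 IP fragments and 0 and 0 IgG fragments, with a bound of 9.08-fold in the first pair and no increase bounded in the WT4 pair (0.898-fold against the floor). Sdf2, which resembles it, had 16 and 20 IP fragments and 0 and 0 IgG fragments, bounds of 4.54-fold and 1.80-fold, and shares a listed locus.

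Of 22 other oxidoreductases and their partners, 1 (4.55%) was higher past 2-fold and 5 (22.7%) lower in the first pair, against 13 (59.1%) and 1 (4.55%) in the WT4 pair. The medians were -0.0019 and 1.46, the second being 0.44 at the bound. Tmx4, a membrane thioredoxin, had 3040 and 265 IP fragments and 703 and 12 IgG fragments. It was higher in IP in both pairs, at log2 ratios of 1.87 and 2.53, with an unadjusted p = 0.00116 and an adjusted p = 1.0 (edgeR quasi-likelihood). Txndc5, another protein disulphide isomerase, had 74 and 62 IP fragments and 147 and 42 IgG fragments and was lower in both pairs, at -1.16 and -1.30.

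Of the 19 genes of the N-glycan folding cycle, 2 (10.5%) were higher and 4 (21.1%) lower in the first pair, against 15 (78.9%) and 1 (5.26%) in the WT4 pair. The medians were 0.05 and 2.30, the second being 1.17 at the bound. Prkcsh, the beta subunit of glucosidase II, which trims glycans for Calr and Canx, had 571 and 103 IP fragments and 146 and 2 IgG fragments, for ratios of 1.70 and 3.55. Ddost, a subunit of the oligosaccharide transferase, had 86 and 13 IP fragments against 22 and 0 IgG fragments, with a bound of 1.17-fold in the WT4 pair. Its IgG level alone would not have brought Ddost into the tested genes. Edem2, a mannosidase-like protein that marks misfolded glycoproteins, was lower in both pairs (-2.37 and -1.48), with 26 and 11 IP fragments and 138 and 9 IgG fragments.

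Unfolded protein response signalling, beyond the sensors above, had 25 tested genes with medians of -0.58 and 0.53 (0.43 at the bound). In the first pair 1 (4.0%) was higher and 9 (36%) lower, and the WT4 pair had 9 (36%) higher and 2 (8.0%) lower, with 0 higher in both. Trib3, a pseudokinase downstream of the PERK branch, had 0 and 26 IP fragments and 19 and 26 IgG fragments. It was at least 7.44-fold lower against the floor in the first pair, and its WT4 log2 ratio was -1.83. Creb3l3, a membrane-bound factor related to Atf6, had 0 and 3 IP fragments and 22 and 9 IgG fragments. It was at least 8.62-fold lower in the first pair, and its WT4 log2 ratio of -2.96 rests on few fragments. The IP level of Creb3l3 alone would not have brought it into the tested genes.

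Of 20 genes of endoplasmic reticulum-associated degradation, 0 were higher and 3 (15%) lower in the first pair, against 10 (50%) and 1 (5.0%) in the WT4 pair, and none the same way in both (medians -0.16 and 0.98, the second 0.75 at the bound). The most abundant genes of the list were Sel1l, the scaffold of the HRD1 ligase (ratios -0.65 and -0.19), and Nploc4, a cofactor of the VCP segregase (-0.12 and 0.65). FPKM gave Sel1l -0.76 and -1.81 and Nploc4 -1.66 and -0.068, which crosses the 2-fold line for both and turns the sign of Nploc4 in the WT4 pair.

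Of 18 translocon and signal peptidase genes, 3 (16.7%) were higher and 2 (11.1%) lower in the first pair, against 11 (61.1%) and 4 (22.2%) in the WT4 pair. The medians were -0.19 and 1.57, the second being 0.93 at the bound. Sec62, a translocon subunit that shares a listed locus, had 1217 and 238 IP fragments and 428 and 22 IgG fragments, for ratios of 1.26 and 1.53. Srp68 of the signal recognition particle had 396 and 33 IP fragments and 137 and 0 IgG fragments, with a bound of 2.97-fold in the WT4 pair.

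Chaperones outside the endoplasmic reticulum gave medians of 0.31 and 1.44 (1.38 at the bound) over 19 genes, with 1 (5.26%) higher and 1 (5.26%) lower in the first pair, against 10 (52.6%) and 0 in the WT4 pair. Hspa4, a cytosolic exchange factor for Hsp70, was the 1 gene of this list over 2-fold higher in both pairs. It had 2991 and 368 IP fragments and 1167 and 30 IgG fragments, log2 ratios of 1.12 and 1.71, an unadjusted p = 0.0237 and an adjusted p = 1.0 (edgeR quasi-likelihood).

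**Figure D4:**
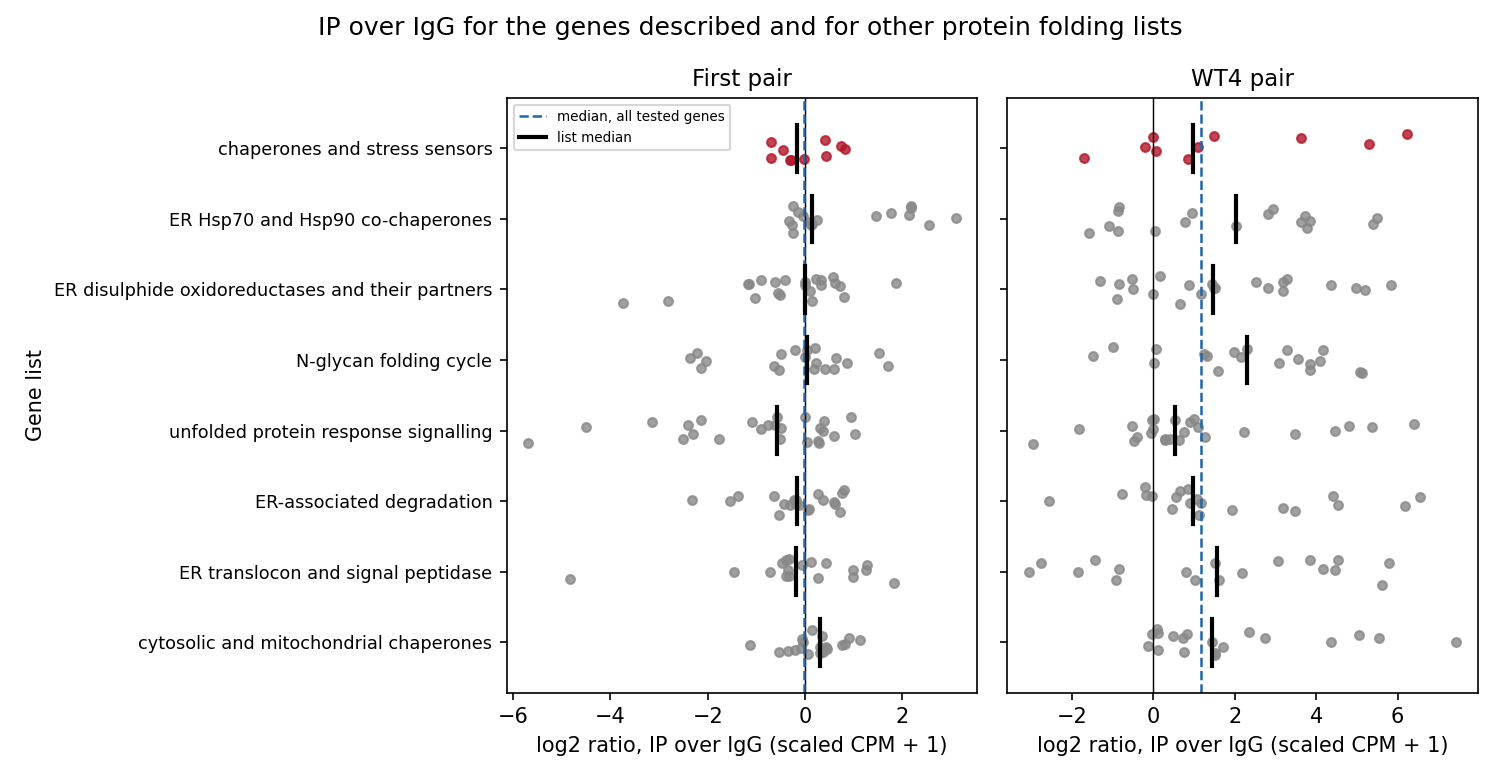
Log2 ratio of IP over IgG (scaled CPM + 1) of each tested gene in the first pair (left) and the WT4 pair (right), for the 10 genes (red, top row) and the 7 other lists (grey), with each list's median (black bar) and the median of all tested genes (dashed line). The 10 genes lie between -0.70 and 0.83 in the first pair and between -1.70 and 6.24 in the WT4 pair.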

How the data were processed

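RNA immunoprecipitation libraries were prepared after ribosomal RNA depletion with a directional kit, per the labels' protocols. The submitters' processing notes name HISAT2, Cufflinks, Cuffdiff, cutadapt 1.9.3 and mm10, without a role or order, and no annotation release was found in the sources used here. The authors deposited 1 table per pair, with estimated counts scaled between the 2 libraries and with FPKM. In each library the deposited counts rise in equal steps, of 0.926 and 0.731 in IP and 1.09 and 2.71 in IgG. Divided by its step, a value above 0 came out whole, to a tolerance of 0.05, for 94.4% to 97.8% of genes, and the resulting fragments were rounded. Rows of 1 symbol were summed, and genes with a mean of at least 1 scaled CPM were kept (all 10 members). Scaled CPM, log2 ratios (pseudocount 1) and a 2-fold line were used within pairs. Across pairs, edgeR 4.0.16 (R 4.3.3) was run on fragments with the pair as a block and library sizes from the authors' scaling, called at an adjusted p under 0.05. With 1 residual degree of freedom a gene, edgeR estimated an infinite prior. Each gene was thus given the spread fitted at its abundance, with no part from its own values. Standard errors are the log2 fold change over the root of its F statistic. DESeq2 1.42.0 and limma 3.58.1 on FPKM were alternatives. Libraries were paired as the tables and titles pair them. Across genes, the deviations of the IP and IgG libraries of a pair from their group means had an r of 0.262. Counting intervals are exact (Clopper-Pearson). Gene coordinates are those of GENCODE vM21 (GRCm38, the same assembly as mm10). The members and lists were chosen with earlier results of these data known. From each list, up to 4 genes past 2-fold in 1 direction in each pair were named by size of the mean ratio, or its 2 most abundant genes where there were none, and Creld2 was added after its values were seen. A further list of cell type markers is not reported here.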

Additional observations from a re-analysis of the deposited data

How the results depend on the processing

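Under 11 other fits none of the 10 genes was called, with adjusted p from 0.564 to 1.0 where one was given. Over all genes, edgeR called 0 higher with no replicate block, DESeq2 3, and limma on FPKM 0, and 1 gene was called lower when each pair was centred on its median. Leaving out 1 library, without the block, gave 0 to 6 calls higher and 0 to 5 lower. Centring turned the median log2 ratio of the 10 genes in the WT4 pair to -0.20, with 3 genes at least 2-fold higher and 4 lower, and Hspa5 to -0.087 there. FPKM put 1 gene higher and 1 lower in the first pair, and 1 higher in both. The log2 fold change across both pairs changed sign for Hspa5 when centred (-0.19) and with limma on FPKM (-0.51), and for Canx likewise (-0.15 and -0.13). With 1 library left out it spanned -0.20 to 0.98 for Hspa5, -0.30 to 1.04 for Canx, -0.71 to 10.36 for Pdia3, -0.58 to 0.10 for Pdia4, -0.031 to 4.06 for Ern1, 0.30 to 1.65 for Hsp90b1, 0.21 to 1.11 for Calr, 0.74 to 10.84 for P4hb, -1.95 to -0.49 for Xbp1 and -0.59 to -0.33 for Atf6. The lower end for Hsp90b1 and P4hb came without the WT4 IgG library, and the cause was not tested. The upper ends for Pdia3 and P4hb came without the first IgG library. The IgG library then left had no fragment of either gene, so these upper ends are no measure of size. Total fragments, TMM factors within pairs, other pseudocounts (0.1 and 5) and filters (none, or 10 scaled CPM) left each count of the 10 genes past 2-fold within 1.5 times. For the wider lists, chosen as an alternative after seeing the data, a pseudocount of 5 cut the chaperone partners higher in both pairs to 3 (6 at 0.1) and took the signalling genes lower in both from 2 to 0. Within a pair, leaving out a library leaves no ratio, so the other pair stands alone. The WT4 IgG library held the fewest fragments, 360369, and the part of its depth in the WT4 ratios was not tested.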
